A study of Homo sapiens with 9 samples.

Results

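Chromosome 19 carries the densest set of zinc finger genes in the human genome, and its accessible sites were described here in HEK293T, an established cell line from human embryonic kidney. Members were all peaks on chromosome 19 in the 4 deposited ATAC-seq peak lists, 6930 of 194414 peaks in all. By list there were 1652 peaks of 39194 in the control, 1766 of 50917 in the IGF2BP1 knockout, 2005 of 60262 in the IGF2BP2 knockout and 1507 of 44041 in the IGF2BP3 knockout. The chromosome was chosen by measured values, namely its share of the peaks in these lists, so those shares are a description and no test is made on them. Zinc finger gene clusters were taken as the intervals from 19.7 to 24.2 Mb (the p-arm cluster), from 36.0 to 38.0 Mb (the mid-q cluster) and from 52.0 to 58.6 Mb (the distal q cluster). All other positions are the rest of the chromosome.

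ATAC-seq marks open DNA by where the Tn5 transposase inserts its adapters. The control cells were made in parallel with Cas9 and a guide that targets no mammalian gene. Each knockout was made by transient transfection of a plasmid with 3 guides against IGF2BP1, IGF2BP2 or IGF2BP3, which encode RNA-binding proteins, and each was 1 single-cell clone, so that clone and genotype cannot be told apart. The control had 2 libraries (batches 2 and 3), the IGF2BP1 knockout 3 (batches 1, 2 and 3), and the IGF2BP2 and IGF2BP3 knockouts 2 each (batches 2 and 3). The cells received no other treatment, and the transposition followed the Omni-ATAC variant. All 3 knockouts are set against the same control list. Each group is represented by 1 list without scores or read depth, so no spread between replicates was measured and no p-value is given. Intervals below are 95% Wilson intervals, which cover counting error over peaks or genes only. Neighbouring peaks share their surroundings and are not independent.

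As a check of the labelled cell type, gene ends were inspected at marker genes. A peak was present in all 4 lists at 4 of 6 kidney genes (LHX1, WT1, SIX2 and SALL1) and in no list at PAX2 or PAX8, a share near the 63.4% of all coding genes. Peaks were present in all 4 lists at 3 of 3 genes reported in this line (NEFL, NEFM and VIM). Among blood cell genes, SPI1 had a peak in all 4 lists, CD3E in 1 list (the IGF2BP1 knockout), and PTPRC in none. These counts do not tell the cell type, and an open gene end is not a measure of expression.

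C2H2 zinc finger proteins are the largest class of human transcription factors. Many carry a KRAB domain, which binds the corepressor TRIM28 and, through it, the histone methyltransferase SETDB1, and they are best known for silencing transposable elements. Their genes arose by tandem duplication and lie in long arrays, and the bodies of many of these genes are themselves marked by the repressive mark H3K9me3 while their promoters stay active.

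By gene symbol, zinc finger genes made up 36 of 38 protein-coding genes in the p-arm cluster (94.7%), 29 of 41 in the mid-q cluster (70.7%) and 108 of 224 in the distal q cluster (48.2%), 173 genes in all. These include a few read-through or divergent loci, which share a start with a neighbour. Another 94 zinc finger genes were scattered over the rest of the chromosome among 1054 other coding genes. Besides zinc finger genes, the distal q cluster holds the immune receptor families LILR and KIR, the inflammasome-related NLRP genes, and ordinary housekeeping genes.

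Start sequences of the genes that carry the results are shown first. They are the 200 bases before the RefSeq start site on GRCh38.p14, written along the gene's own strand, with CpG dinucleotides in capitals. From the p-arm cluster, ZNF91 (chr19:23395472-23395671, minus strand), a primate repressor of SVA retrotransposons, had a peak in all 4 lists. ZNF93 (chr19:19900746-19900945, plus strand), a repressor of LINE-1 elements, had none in any list. ZNF682 (chr19:20039506-20039705, minus) and ZNF85 (chr19:20923051-20923250, plus) differed between lists.
ZNF91: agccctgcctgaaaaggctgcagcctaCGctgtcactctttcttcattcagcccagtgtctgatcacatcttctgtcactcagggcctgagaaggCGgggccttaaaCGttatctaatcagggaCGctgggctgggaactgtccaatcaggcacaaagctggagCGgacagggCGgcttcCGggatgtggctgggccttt
ZNF93: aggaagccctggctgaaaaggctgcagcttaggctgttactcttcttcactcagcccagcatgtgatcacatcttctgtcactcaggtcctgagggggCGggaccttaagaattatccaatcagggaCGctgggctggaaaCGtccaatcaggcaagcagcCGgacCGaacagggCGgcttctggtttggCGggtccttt
ZNF682: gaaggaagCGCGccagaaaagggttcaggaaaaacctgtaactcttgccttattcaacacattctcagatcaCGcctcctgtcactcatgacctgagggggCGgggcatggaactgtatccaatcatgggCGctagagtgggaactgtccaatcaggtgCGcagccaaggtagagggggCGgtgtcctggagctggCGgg
ZNF85: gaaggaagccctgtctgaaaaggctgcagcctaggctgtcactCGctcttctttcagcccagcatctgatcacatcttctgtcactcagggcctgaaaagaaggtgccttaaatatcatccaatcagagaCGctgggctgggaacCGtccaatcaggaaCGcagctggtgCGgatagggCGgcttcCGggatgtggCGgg

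Apart from ZNF682 these sequences are closely alike. Over the 300-base window that RefSeq gives around each start (250 before and 50 after), the ZNF91 window was 83.0% identical to that of ZNF93, 80.7% to ZNF85 and 80.0% to its neighbour ZNF681, against 66.7% to ZNF682. Unrelated windows gave values such as 43.7% (ZNF91 and ZNF793) by the same measure. These 5 windows of the p-arm cluster held only 9 to 11 CpG each. ZNF91 and ZNF93, which stood at opposite ends in accessibility, held 11 and 10.

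From the distal q cluster come 3 genes that differed between lists, ZNF808 (chr19:52527468-52527667, plus), ZNF83 (chr19:52690497-52690696, minus) and ZNF525 (chr19:53365505-53365704, plus).
ZNF808: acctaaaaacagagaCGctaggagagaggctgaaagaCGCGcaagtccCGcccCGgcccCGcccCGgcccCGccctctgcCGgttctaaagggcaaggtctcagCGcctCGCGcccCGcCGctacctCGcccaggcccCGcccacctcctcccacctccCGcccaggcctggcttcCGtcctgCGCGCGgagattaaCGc
ZNF83: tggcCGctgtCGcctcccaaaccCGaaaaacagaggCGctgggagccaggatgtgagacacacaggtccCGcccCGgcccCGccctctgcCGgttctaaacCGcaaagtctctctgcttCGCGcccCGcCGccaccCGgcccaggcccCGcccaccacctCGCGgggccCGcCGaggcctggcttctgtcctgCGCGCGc
ZNF525: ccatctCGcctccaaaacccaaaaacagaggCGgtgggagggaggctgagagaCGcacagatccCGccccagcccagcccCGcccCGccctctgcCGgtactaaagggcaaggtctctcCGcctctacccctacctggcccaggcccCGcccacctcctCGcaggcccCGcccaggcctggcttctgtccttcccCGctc

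The windows of ZNF808, ZNF83 and ZNF525 were again alike, with 77.7% identity between ZNF83 and ZNF525, 74.3% between ZNF808 and ZNF525 and 71.3% between ZNF808 and ZNF83. They held 29, 29 and 21 CpG. ZNF667, which no list marked as open, held 42, a number that among the zinc finger genes of the clusters it shared with ZSCAN1 and that no other exceeded. ZSCAN1 was closed in all 4 lists too.

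Peaks were sparser in the clusters than in the rest of the chromosome, and densities on other chromosomes were not computed. Coding genes numbered 38 in the p-arm cluster (4.5 Mb), 41 in the mid-q cluster (2.0 Mb) and 224 in the distal q cluster (6.6 Mb). The rest held 1148 coding genes in 45.5 Mb. The rest of the chromosome held 31.3 peaks per Mb in the control list, and the p-arm cluster held 5.33, the mid-q cluster held 18.5 and the distal q cluster held 25.3. The order of the areas was the same in all 4 lists. In the p-arm cluster the counts were 24 peaks in the control and 23, 26 and 20 in the IGF2BP1, IGF2BP2 and IGF2BP3 knockouts. In the mid-q cluster they were 37, 37, 43 and 36, and in the distal q cluster they were 167, 172, 183 and 164. Thus 228 of the 1652 control peaks of the chromosome (13.8%, 12.2 to 15.5) lay in the clusters, against 13.1% (11.6 to 14.8), 12.6% (11.2 to 14.1) and 14.6% (12.9 to 16.5) in the respective knockouts. These 4 intervals overlap.

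**Figure D1:**
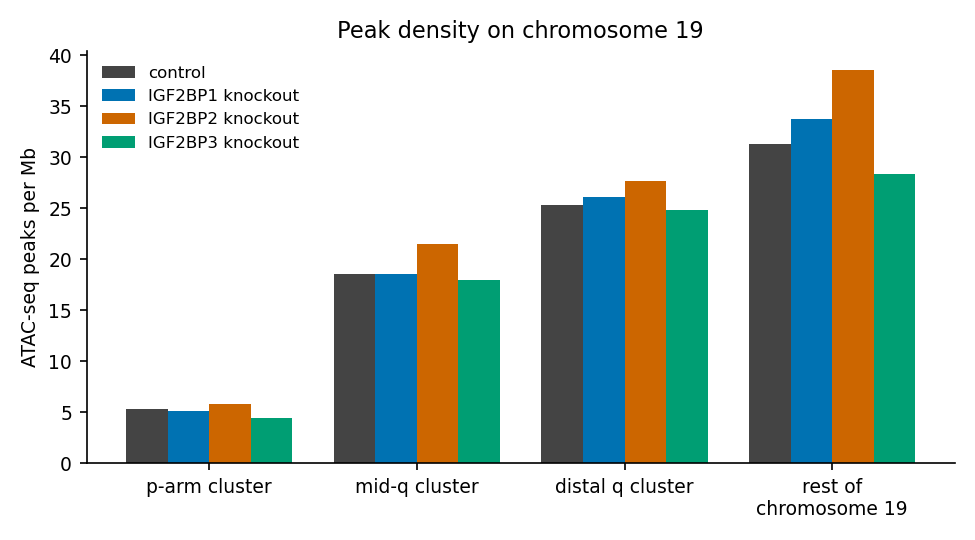
Bars give the number of ATAC-seq peaks per Mb (vertical axis, from 0) in each zinc finger cluster and in the rest of chromosome 19 (horizontal axis), 1 bar per list and no error bar since each group is 1 list. In the control list the density runs from 5.33 in the p-arm cluster to 31.3 in the rest of the chromosome, and the 4 lists differ most in the rest, where the IGF2BP2 knockout reaches 38.5.

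The last limit is the end of the annotated chromosome and has no outside. Within 0.2 Mb inside the other 5 limits there were 21 control peaks, and within the same distance outside there were 27. The knockouts held 22, 25 and 21 inside and 32, 31 and 24 outside.

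The numbers of peaks moved less between lists in the clusters than in the rest of the chromosome. Compared with the control, the clusters held 1.02, 1.11 and 0.965 times as many peaks in the knockouts in turn, and the rest held 1.08, 1.23 and 0.904 times as many. Peaks away from gene ends accounted for most of the change in the rest. In the IGF2BP1 knockout there were 740 of these (1.13 times) and 794 at gene ends (1.04 times). In the IGF2BP2 knockout there were 926 away from gene ends against 657 in the control (1.41 times), while peaks at gene ends numbered 827 against 767 (1.08 times). In the IGF2BP3 knockout there were 553 peaks away from gene ends (0.842 times) and 734 at gene ends (0.957 times). The knockout lists are longer than the control list, and the chromosome's share of a whole list stood at 0.823, 0.789 and 0.812 of the control share. Counting peaks at gene ends alone, it stood at 0.952, 0.948 and 0.932.

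Median widths in the clusters were 848 bp (control), 948 bp (IGF2BP1 knockout), 804 bp (IGF2BP2 knockout) and 824 bp (IGF2BP3 knockout). In the rest they were 788, 865, 690 and 732 bp in the same order. Read as percentiles of width within each whole list, the cluster medians were 57.5, 61.2, 66.6 and 60.7 and those of the rest 51.8, 53.3, 55.1 and 52.1. The clusters hold a larger share of gene-end peaks, given below, which were wider than others. Among control peaks at gene ends alone the medians were 876 bp in the clusters and 894 bp in the rest, and among those away from gene ends 664 and 690 bp. In the 3 knockouts in turn, gene-end medians were 1009, 884 and 879 bp in the clusters. In the rest they were 991, 821 and 821 bp, so at gene ends the clusters were wider in each knockout. Away from gene ends, medians were 716, 620 and 604 bp in the clusters and 732, 582 and 611 bp in the rest. In the control, the median was 714 bp in the p-arm cluster (percentile 43.4), 861 bp in the mid-q cluster and 852 bp in the distal q cluster.

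The widest cluster peaks lay mostly at genes of other families in the distal q and mid-q clusters. A peak shared by MBOAT7 and TSEN34, a lysophospholipid acyltransferase and a tRNA splicing subunit, measured 2341, 2543, 2520 and 2426 bp in the control and the 3 knockouts. A peak at LENG9 measured 2157, 2233, 2172 and 2205 bp. CAPNS1, the small calpain subunit, had peaks of 2049, 2033 and 2067 bp among the 5 widest of the control, IGF2BP1 knockout and IGF2BP2 knockout lists. U2AF2, a splicing factor subunit, was among the 5 widest in all 4 lists (1695, 1876, 1703 and 1666 bp). Zinc finger genes appeared among them at ZNF584 in the IGF2BP1 knockout (1773 bp) and at ZNF616 and ZFP30 in the IGF2BP3 knockout (1558 and 1465 bp). The widest control peak of the clusters, 2392 bp, overlapped MYADM. The IGF2BP2 knockout had 1 further peak among its widest, of 1677 bp, 1.03 kb outside RPS9.

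Accessibility in the clusters sat at gene ends, meaning within 1 kb of either end of a RefSeq gene. In the control list 172 of 228 cluster peaks did so (75.4%, 69.5 to 80.6), against 53.9% (51.3 to 56.4) in the rest of the chromosome and 39.4% (39.0 to 39.9) on all other sequences. The knockouts gave 75.0%, 71.0% and 76.8% in the clusters and 51.8%, 47.2% and 57.0% in the rest. In no list did the interval for the clusters overlap that for the rest. The share was highest in the p-arm cluster, where 23 of 24 control peaks (95.8%, 79.8 to 99.3) were at gene ends.

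**Figure D2:**
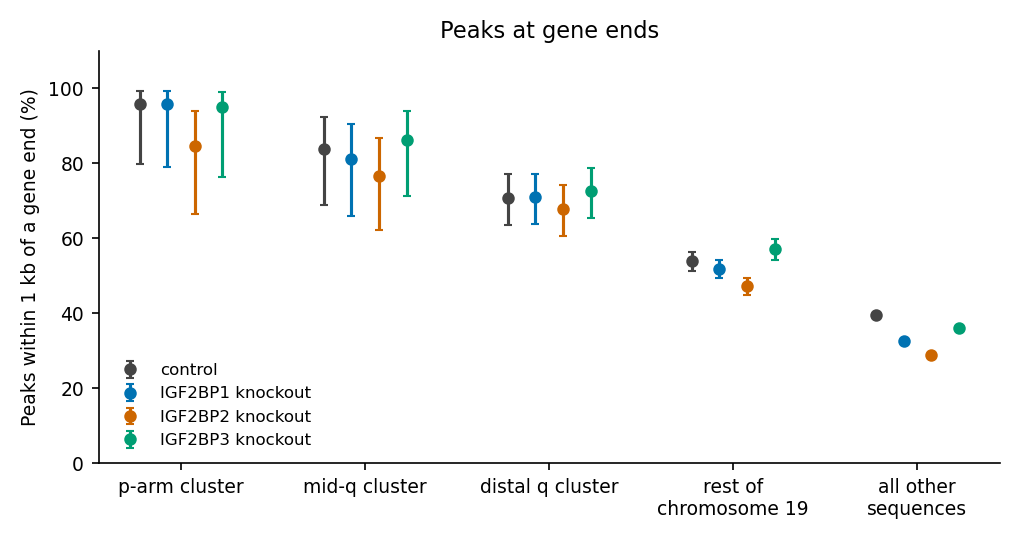
Points give the percentage of peaks within 1 kb of a gene end (vertical axis) in each area (horizontal axis), 1 colour per list, with 95% Wilson intervals as bars. In each list the 3 clusters lie above the rest of chromosome 19, and the rest lies above all other sequences.

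The remaining cluster peaks were few. Of 56 control peaks away from gene ends, 11 lay inside a zinc finger gene, 23 inside another coding gene and 22 in neither. In the IGF2BP1 knockout the numbers were 14, 25 and 19 of 58, in the IGF2BP2 knockout 16, 28 and 29 of 73, and in the IGF2BP3 knockout 10, 24 and 17 of 51. Inside the outer limits of zinc finger genes there were thus 10 to 16 such peaks over 173 genes in a list. Some of them may lie at start sites inside those limits. Cluster peaks away from gene ends, taken all together, were narrow, with a median of 664 bp in the control against 876 bp for those at gene ends.

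RefSeq gives a strand and start site for 147 of the 173 zinc finger genes of the clusters, which allowed the position of the peaks to be read along the gene. Where a gene has several start sites, the one nearest its outer 5′ end was used here. In the control, 104 of 147 genes (70.7%) had a peak within 1 kb of that site. Measured to it, the centre of the closest peak lay at a median of 81 bases downstream (quartiles -5 and 143). Of the 104 centres, 102 were within 500 bp. The medians were 65, 60 and 62 bases downstream in the knockouts. For other genes in the rest of the chromosome, the control median was -58, on the upstream side (quartiles -207 and 116), and 427 of 500 centres (85.4%) were within 500 bp.

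By gene ends, most zinc finger genes of the clusters had a peak in every list or in none. A gene-end peak was present in all 4 lists at 108 of 173 genes (62.4%, 55.0 to 69.3) and absent from all 4 at 58 (33.5%, 26.9 to 40.9). Over all 20052 protein-coding genes, 63.4% had one in all 4 lists. The clusters were not alike. All 4 lists held a peak at 23 of 29 zinc finger genes in the mid-q cluster (79.3%), 68 of 108 in the distal q cluster (63.0%) and 17 of 36 in the p-arm cluster (47.2%). The intervals of the p-arm cluster (32.0 to 63.0) and the mid-q cluster (61.6 to 90.2) overlap slightly. Start-site peaks were then counted within 1 kb of any RefSeq start site of a gene, which 147 of the genes have. Of these, 105 (71.4%, 63.7 to 78.1) had a peak in all 4 lists and 33 (22.4%, 16.5 to 29.8) in none. In the mid-q cluster 25 of 27 (92.6%, 76.6 to 97.9) then had one in all 4 lists, in the distal q cluster 66 of 92 (71.7%) and in the p-arm cluster 14 of 28. The other 26 genes have no start site here, so shares by start site and by gene end cover different sets of genes. Of the 105 genes, 93 had a gene-end peak in all 4 lists, and of the 33, 31 had none in any list. Of the 58 genes without a gene-end peak, some of which lack a RefSeq start site, 12 had a start-site peak in all 4 lists. It came from a start inside the outer limits of the gene, as at ZNF565, ZNF420, ZNF875 and ZNF540 of the mid-q cluster. On other chromosomes 242 of 304 zinc finger genes (79.6%, 74.7 to 83.8) had a gene-end peak in all 4 lists.

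**Figure D3:**
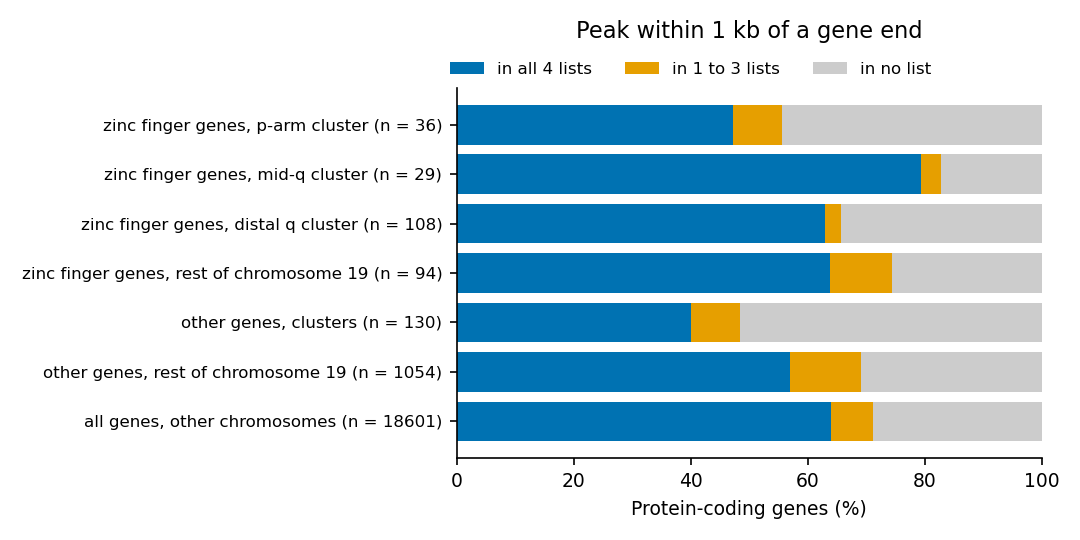
Stacked bars give the percentage of protein-coding genes (horizontal axis, 0 to 100) with a gene-end peak in all 4 lists, in 1 to 3 lists, or in no list, for zinc finger and other genes of each area (vertical axis, with the number of genes). The share in 1 to 3 lists is 4.05% for the 173 zinc finger genes of the 3 clusters together and 12.0% for other genes in the rest of chromosome 19.

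Along the chromosome, neighbours with and without gene-end peaks were listed in order, with no expectation for the length of a run and with examples chosen after their values were seen. In the p-arm cluster, 10 zinc finger genes in a row from ZNF66 to ZNF100 (20776304 to 21767579) had a gene-end peak in at least 1 list. Just beyond them, 6 in a row from ZNF43 to ZNF98 (21804946 to 22422346), among them ZNF208 and ZNF257, had none in any list. After ZNF492, which had one, came 4 more without a peak from ZNF99 to ZNF730, and then 6 with a peak from ZNF724 to ZNF254, which include ZNF91. The longest such run with peaks, of 11 genes, reached from ZNF566 to ZNF568 in the mid-q cluster (36445119 to 36997932). In the distal q cluster, ZNF610, ZNF880, ZNF528, ZNF534 and ZNF578 were 5 neighbours without a gene-end peak, although ZNF880 had a start-site peak in the IGF2BP1 and IGF2BP2 knockouts. The imprinted gene PEG3 and its neighbours ZIM2 and ZIM3 had none either, and nor did ZSCAN4, a gene of the early embryo.

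A gene-end peak was present in 1 to 3 lists at 7 of the 173 genes (4.05%, 1.97 to 8.12). The share over all coding genes was 7.47%, inside that interval. Among other genes in the rest of the chromosome it was 12.0% (10.2 to 14.2), among the 94 zinc finger genes there 10.6% (5.88 to 18.5), and among the 130 other genes of the clusters 8.46% (4.79 to 14.5). Counted at start sites, 9 of 147 zinc finger genes of the clusters differed (6.12%, 3.25 to 11.2), against 9.18% (7.42 to 11.3) of other genes in the rest. These 9 were the 7 described below together with ZNF880 and ZNF581, which had a start-site peak in the IGF2BP1 and IGF2BP2 knockouts alone. ZNF581 had a gene-end peak in all 4 lists, and both were named after their values were seen. Counts for each knockout against the same control were small. A peak absent from the control was present at 1, 2 and 2 zinc finger genes of the clusters in the IGF2BP1, IGF2BP2 and IGF2BP3 knockouts, where 3.00%, 3.24% and 2.31% of all coding genes had such a peak. A control peak was missing at 1, 2 and 3, where 0.743%, 1.37% and 1.65% of all coding genes lacked theirs.

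At ZNF83, and at no other zinc finger gene of the clusters, each knockout list had a gene-end peak that the control lacked. Genome-wide 1.18% of coding genes showed this pattern. LOC122539214, an annotated locus within ZNF83, ends at the same position and shares these peaks. They covered the start site, with 1411 bp in the IGF2BP1 knockout (52689550 to 52690960), 713 bp in the IGF2BP2 knockout (52690299 to 52691011) and 1050 bp in the IGF2BP3 knockout (52689800 to 52690849). They ranked at the 88.0, 57.8 and 76.8 percentiles of width in their lists. Ranked by the narrowest of the 3 peaks, this was the widest cluster region of its kind.

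ZNF682 showed the opposite pattern, shared by 0.319% of coding genes genome-wide. Its control peak of 645 bp (20039015 to 20039659, percentile 35.0) lay over the start site, and no knockout list had a peak there.

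ZNF85 and ZNF681, also of the p-arm cluster, had peaks in every list but the IGF2BP3 knockout. At ZNF85 the control, IGF2BP1 knockout and IGF2BP2 knockout peaks measured 592, 613 and 582 bp. At ZNF681 they measured 540, 979 and 574 bp, and the same peaks touched an end of RPSA2, a neighbour that has an end inside ZNF681. The control peaks stood at percentiles 29.2 and 22.7, so both were narrow for that list. All 3 genes of the p-arm cluster that differed did so by a peak that the control list had and a knockout list lacked.

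The other 3 genes differed in 1 list each. ZNF808, known for its role in pancreas development, lacked a peak in the IGF2BP2 knockout and had peaks of 612, 533 and 366 bp in the control, IGF2BP1 knockout and IGF2BP3 knockout. ZNF793 had a peak of 581 bp in the IGF2BP2 knockout alone. ZNF525 had 1 of 368 bp in the IGF2BP3 knockout alone, at percentile 7.50 of that list. Across the 7 genes, 11 of 15 peaks were narrower than the median of their list. How the authors treated reads with several matches is not given in the sources used here, and its part in differences at windows as alike as those of ZNF808, ZNF83 and ZNF525 was not tested.

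Each gene has 1 start window, at the start nearest its outer 5′ end. Its start-site peak may lie at any of its starts. Genes such as ZNF565, ZNF875 and ZNF540 therefore count as open in all 4 lists without a peak at that window. Near-identical start windows were rare. Among the 147 zinc finger genes of the clusters, 6 had a window at least 90% identical to that of another gene: ZNF714 and ZNF431 (91.0%), and 2 pairs formed by a gene and its own read-through locus. All 6 had a start-site peak in all 4 lists. The closest other window was a median of 54.7% identical for the 105 genes with a start-site peak in all 4 lists, 77.7% for the 9 with one in 1 to 3 lists and 59.7% for the 33 with none. Within the p-arm cluster these medians were 81.8%, 82.0% and 83.7%, and within the distal q cluster 54.8%, 77.7% (5 genes) and 56.0%.

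CpG content around the start was lower in the p-arm cluster than in the distal q cluster, both for open and for closed genes. Over the 3 clusters together, the median was 23.0 CpG for the 105 zinc finger genes open in all 4 lists and 14.0 for the 33 open in none. For zinc finger genes in the rest of the chromosome the medians were 19.5 (62 genes) and 14.5 (14 genes). The mid-q cluster had a median of 21.0 for 25 open genes and only 1 closed gene, with 37. In the p-arm cluster the median was 10.5 CpG per 300-base window for the 14 genes with a start-site peak in all 4 lists and 10.0 for the 11 with none, and the highest of all its 28 windows was 16. In the distal q cluster the medians were 25.0 for 66 genes and 20.0 for 21 genes, and the ranges overlapped, from 8 to 40 and from 2 to 42. For other genes in the rest of the chromosome, the contrast was wide, with 27.0 CpG for 487 genes open in all lists and 8 for 285 genes open in none.

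**Figure D4:**
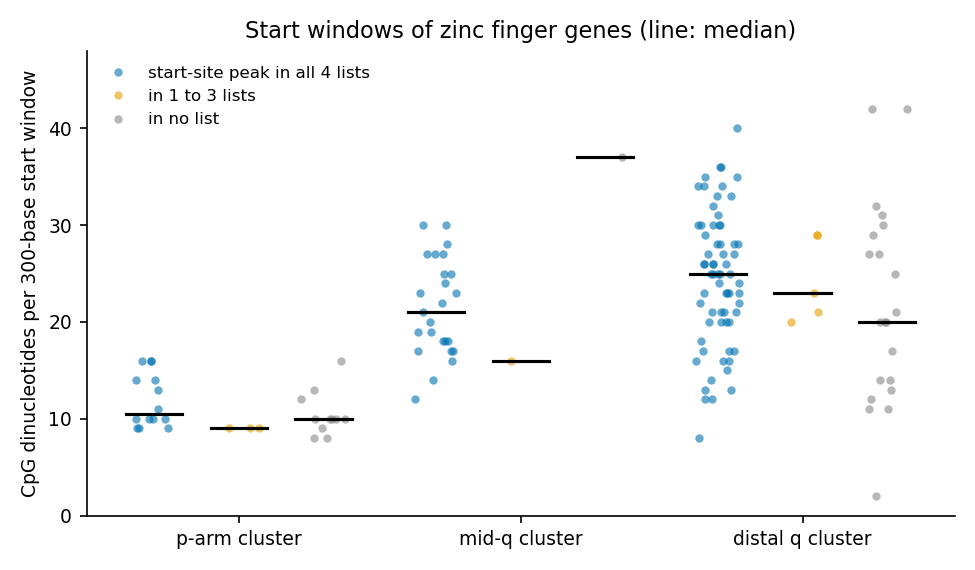
Each point is the start window of 1 zinc finger gene, with the number of CpG dinucleotides in 300 bases (vertical axis) by cluster (horizontal axis). Within a cluster, genes are split by whether a peak at any of their start sites was in all 4, 1 to 3 or no lists. Black lines are medians. Open and closed genes of the p-arm cluster share a band of 8 to 16 CpG, and closed genes of the distal q cluster reach 42.

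Some closed genes had CpG-rich starts. A window of at least 23 CpG, the median of open zinc finger genes in the clusters, was present at 10 of 33 genes (30.3%) without a start-site peak in any list. Among the open genes it was present at 53 of 105 (50.5%), a share set by using their median. In the distal q cluster the shares were 42.9% of closed and 63.6% of open genes. The 10 closed genes were ZFP82 in the mid-q cluster, and ZNF528, ZNF347, ZNF677, ZNF813, ZNF667, ZNF835, ZSCAN1, ZNF135 and ZNF544 in the distal q cluster. ZNF544 nevertheless had a gene-end peak in all 4 lists, away from that start site.

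Short motifs were then counted in the windows, on both strands. CCGGAAG, a core recognised by ETS family factors, was present in 83 of 147 windows of zinc finger genes of the clusters (56.5%), against 10.3% of the 35116 windows in the whole RefSeq table, 21.7% of zinc finger genes in the rest of the chromosome and 13.3% of other genes there. By cluster the shares were 75.0% in the p-arm cluster, 22.2% in the mid-q cluster and 60.9% in the distal q cluster. It was in 55.2% of windows of genes with a start-site peak in all 4 lists and 60.6% of those of genes with none. CCAAT, the box bound by NF-Y, was in 28 of 28 windows of the p-arm cluster, 22.2% of those of the mid-q cluster, 48.9% of those of the distal q cluster and 34.6% of all windows. GGGCGG, the GC box, was in 65.3% of windows of the clusters (25.9% in the mid-q cluster) and 45.0% of all windows, but also in 68.7% of zinc finger genes and 66.8% of other genes in the rest of the chromosome. TATAAA was in 3.40% and 11.5%. Matches of different motifs may overlap by a few letters at their ends and were counted separately. Duplicated genes share sequence by descent, so the windows are not independent. A match is a stretch of letters and not a bound site.

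The width of gene-end peaks, at genes with such a peak in all 4 lists, gave a further comparison. In each list the widest peak at either end of a gene was taken, so it need not be the same peak. At ZNF766 the peaks taken in the control and the IGF2BP3 knockout lay at opposite ends of the gene. At the 108 zinc finger genes of the clusters open in all 4 lists, the widest gene-end peak had median widths of 882, 1006, 918 and 876 bp in the control and the IGF2BP1, IGF2BP2 and IGF2BP3 knockouts. Gene by gene, the median log2 ratio of knockout to control width was 0.09, 0.03 and -0.03. For other genes in the rest of the chromosome (601 genes) it was 0.10, -0.05 and -0.12. For genes of other chromosomes (11891 genes) it was 0.10, 0.00 and 0.00. In the IGF2BP3 knockout the peak was narrower than in the control at 449 of 601 other genes in the rest and at 41 of 60 zinc finger genes there. In the clusters it was narrower at 64 of 108 zinc finger genes and at 34 of 52 other genes. The median log2 ratio for these 52 genes was -0.04. On other chromosomes the peak was narrower at 5941 of 11891 genes.

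**Figure D5:**
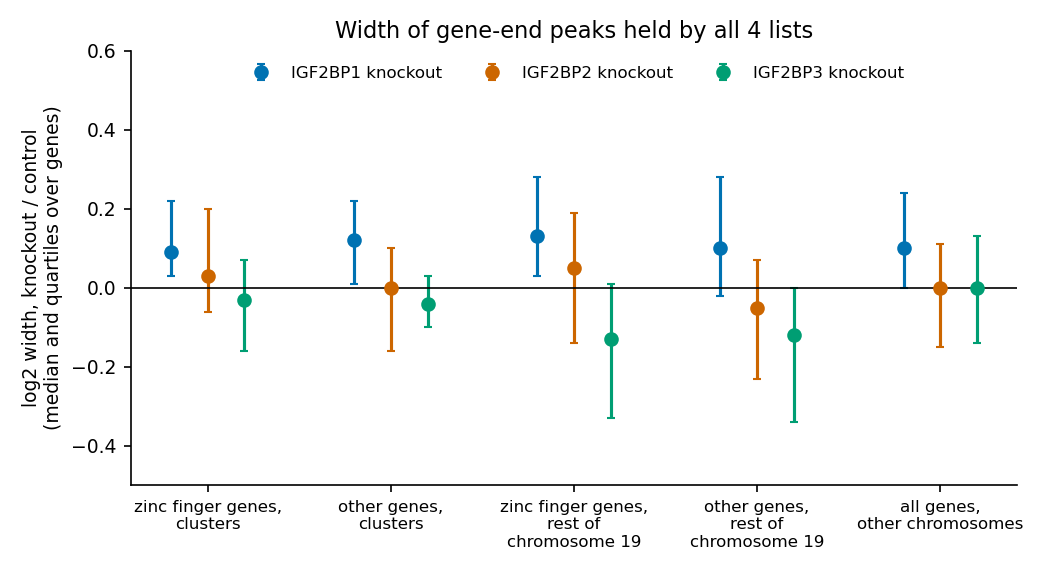
Points give the median, and bars the quartiles over genes, of the log2 ratio of knockout to control width (vertical axis). Gene sets are on the horizontal axis and knockouts are in colour. Width is that of each list's widest gene-end peak, at genes with such a peak in all 4 lists. In the IGF2BP3 knockout the median is -0.12 for other genes in the rest of chromosome 19. It is -0.03 for zinc finger genes of the clusters, -0.04 for other genes of the clusters and 0.00 on other chromosomes.

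Overlap with the control list was compared next. The share of cluster peaks with no base in common with a control peak was 8.62% (5.65 to 12.9), 12.7% (9.14 to 17.4) and 7.27% (4.53 to 11.5) for the IGF2BP1, IGF2BP2 and IGF2BP3 lists. In the rest of the chromosome the shares were 17.2% (15.4 to 19.2), 24.4% (22.5 to 26.5) and 12.0% (10.3 to 13.9), and the intervals overlap for the IGF2BP3 knockout. With each list cut to its widest peaks at the length of the control list, the cluster shares were 5.29%, 6.70% and 4.83%. Over whole lists, uncut and on all sequences, the shares of peaks without a control counterpart were 31.2%, 40.2% and 27.2%. Among peaks at gene ends alone the shares were smaller: in the clusters 4.02%, 6.15% and 4.14%, in the rest 9.70%, 11.9% and 7.08%, and over whole lists 11.2%, 14.2% and 9.09%. Away from gene ends they were 22.4% (13.6 to 34.7), 28.8% (19.7 to 40.0) and 17.6% (9.57 to 30.3) in the clusters and 25.3%, 35.6% and 18.4% in the rest, inside the intervals of the clusters. Cluster and rest intervals at gene ends overlap in each knockout.

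In the other direction, the IGF2BP3 knockout lacked a counterpart for 302 of 1424 control peaks in the rest of the chromosome (21.2%, 19.2 to 23.4) and for 27 of 228 in the clusters (11.8%, 8.27 to 16.7). Over the whole control list that share was 18.5%. At gene ends it was 11.5% (9.41 to 13.9) in the rest, 6.40% (3.61 to 11.1) in the clusters and 6.25% over the whole list. The IGF2BP1 knockout lacked 7.46% of control peaks in the clusters and 10.2% in the rest (10.1% over the whole list). The IGF2BP2 knockout lacked 4.39% and 7.79% (8.80% over the whole list). Control peaks without a counterpart were narrow, with a median of 546 bp in the rest for the IGF2BP3 knockout against 859 bp for those with one.

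Merging overlapping peaks of the 4 lists gave 2204 regions on the chromosome. All 4 lists held 193 of 269 regions in the clusters (71.7%, 66.1 to 76.8), 1065 of 1935 in the rest (55.0%, 52.8 to 57.2) and 41.5% genome-wide. Of the 193 shared cluster regions, 160 were at gene ends. Regions in the IGF2BP2 knockout alone made up 4.83% of the clusters and 9.77% of the rest (15.2% genome-wide). Those in every list but the IGF2BP3 knockout made up 5.58% and 8.37% (5.15% genome-wide). Those in the IGF2BP1 and IGF2BP2 knockouts alone made up 3.35% and 6.46% (7.91% genome-wide). Those that every knockout held and the control lacked numbered 7 in the clusters (2.60%) and 75 in the rest (3.88%), where the genome-wide share was 6.88%. The control alone held 5 cluster regions (1.86%) and 58 in the rest (3.00%), where the genome-wide share was 1.98%.

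Regions in all 3 knockouts at least 1 kb from a control peak were named by their narrowest peak. After ZNF83, the clusters held 1 at IL11, a cytokine gene, which spanned 55368731 to 55370340. Its widest peaks measured 1591, 671 and 594 bp, and in the IGF2BP2 and IGF2BP3 knockouts it was split into 2 peaks. The next was at NAT14, with 957, 845 and 582 bp (55484754 to 55485800). The other 2 lay away from gene ends, within SIPA1L3 (37979530 to 37980233) and 46.6 kb outside WDR87 (37837544 to 37838254). In the rest, the first was within PIP5K1C, a lipid kinase gene, with peaks of 1160, 1137 and 853 bp (3683744 to 3684904). It was followed by regions at PPP1R14A, an inhibitor of myosin phosphatase (38255551 to 38256733), ACP4 (50794459 to 50795539), within SLC1A6, a glutamate transporter gene (14979186 to 14980120), and at SHC2 (459531 to 460428).

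Regions of the control alone were named by the same rule. Before the filter there were 5 in the clusters and 58 in the rest, so the named widths cannot be compared between these areas. After the filter the clusters held 4, at CCDC106 (708 bp, 55647766 to 55648473), ZNF682, SIPA1L3 (548 bp, 37954294 to 37954841) and 9.70 kb from LILRA5 (301 bp). SIPA1L3, at the upper limit of the mid-q cluster, thus held both a region seen in the control alone and 1 seen in all 3 knockouts. In the rest, the widest was at ARHGEF1 and ERFL (1321 bp), followed by regions within UNC13A (888 bp), FSD1 (833 bp), 10.7 kb outside C19orf12 (816 bp) and within the complement gene C3 (744 bp).

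The KIR, LILR, NLRP and VN1R families of the distal q cluster were almost wholly without peaks at gene ends. Of all 116 genes outside the zinc finger class in that cluster, 63 (54.3%, 45.3 to 63.1) had none in any list. Over all coding genes the share was 29.1%. A peak was absent from all 4 lists at 7 of 7 KIR genes and 10 of 10 LILR genes, receptors of natural killer and myeloid cells. It was absent at 8 of 9 NLRP genes, the exception being NLRP12, and at 3 of 3 VN1R genes, which encode vomeronasal receptors. The ribosomal protein genes RPL28 and RPS9 had a peak in all 4 lists. The SIGLEC and FPR families have no coding gene within the limits used.

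The corepressor machinery that KRAB zinc finger proteins recruit was examined as a list of 19 genes, 3 of them on chromosome 19. A gene-end peak was present in all 4 lists at 17 of 19 (63.4% of all coding genes), among them SETDB1, and EHMT2 lacked 1 in the IGF2BP3 knockout. TRIM28, at the end of the distal q cluster, had peaks of 990, 1278, 1034 and 923 bp in the control and the IGF2BP1, IGF2BP2 and IGF2BP3 knockouts. DNMT1, the maintenance DNA methyltransferase, had peaks of 1085, 1148, 1200 and 1228 bp. UHRF1, which guides DNMT1 to replicated DNA, had no peak at its outer gene ends, but all 4 lists had a peak within 1 kb of its RefSeq start site at 4909501, inside the annotated gene. Gene ends thus miss starts that lie inside the outermost limits of a gene.

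In the rest of the chromosome, 12 other genes had a gene-end peak in each knockout that the control lacked, 1.14% of 1054, and 7 had one in the control alone (0.664%). The background shares given above for these patterns were 1.18% and 0.319%. The first group held SHC2, PPP1R14A, BCAM, NPAS1 and NTF4 among others, whose start sites showed the same pattern, and the second ERFL, whose start site did too. Others differed at an outer gene end only: NFIX, counted with the control alone, had a start-site peak in all 4 lists, and PTGER1, counted with the knockouts, had one in the IGF2BP1 knockout alone. Of the scattered zinc finger genes, ZNF234 belonged to the first group, with peaks of 1000, 767 and 462 bp at its start. ZNF561, ZNF302 and ZNF284 had a gene-end peak in every list but the IGF2BP3 knockout, at ZNF561 of 1225, 1114 and 913 bp. At ZNF302, the IGF2BP3 knockout list did have a peak within 1 kb of the start site. These examples were chosen after their values were seen.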

How the data were processed

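ATAC-seq libraries of HEK293T cells were measured in 4 groups (9 libraries). The authors deposited 1 peak list per group, 3 columns with chromosome, start and end and no other measurement. Per the submitters' processing notes, fastp 0.24.1, BWA 0.7.17, MACS2 3.0.0 and bedtools are named with GRCh38 and no role; their settings, the treatment of the transposase offset and of reads with several matches, and how libraries were combined are not given in the sources used here. Read depth is unknown, and depth can change how many narrow peaks a list holds.

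From the lists, peaks were assigned to areas by their midpoint and to gene ends (1 kb) from RefSeq GRCh38.p14, and start windows and strands came from the RefSeq promoter table, which matched 147 of 173 zinc finger genes of the clusters. Densities of the rest use the length up to the last annotated gene. Zinc finger genes were symbols that begin with ZNF, ZFP, ZSCAN, ZKSCAN or ZIM and a digit, plus ZIK1, MZF1 and PEG3; the class includes ZFP36, which encodes a CCCH protein, in the rest of the chromosome. Gene area was set by the gene's midpoint. Identity between start windows came from the global edit distance (edlib). Start sequences are printed only where they touch no annotated gene. Peaks with at least 1 bp in common were called overlapping. Named were zinc finger genes of the clusters that differed between lists, KRAB corepressors on the chromosome, up to 5 regions per class and area at least 1 kb from lists that lack them, and the 5 widest cluster peaks per list; other genes named, such as ZNF91, ZNF93 and ZNF667, and the gene families were chosen after their values were seen. Members and lists were chosen with earlier results of these data known. Overlap and interval code was tested on simulated data (Python 3.11.15, pandas 2.3.3). No test across replicates was possible. A few genes of the lists examined are not reported here.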

Additional observations from a re-analysis of the deposited data

How the results depend on the processing

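Of 42 recomputed values, 23 stayed within their counting interval or within 1.5 times the count, and 19 did not. Shortening the clusters by 0.2 Mb at both ends lowered their share of chromosome 19 peaks to 11.7% in the control and 11.2%, 10.7% and 12.3% in the IGF2BP1, IGF2BP2 and IGF2BP3 knockouts, as fewer peaks then fall inside. With the widest 39194 peaks of each list, that share was 14.7% in the IGF2BP2 knockout. Counting gene ends within 2 kb raised the share of cluster peaks there to 81.6%, 80.6%, 77.4% and 83.6%, and with the widest peaks it was 80.3% and 78.9% in the IGF2BP1 and IGF2BP2 knockouts. With the widest peaks, cluster peaks without a control counterpart came to 5.29% and 6.70% in these knockouts. The counts of zinc finger genes that gained or lost a gene-end peak are too small to rank knockouts. In the IGF2BP1 knockout, gains were 2 within 2 kb and 3 at start sites, and losses were 4 with the widest peaks. In the IGF2BP2 knockout, gains were 4 at start sites, and losses 1 within 2 kb. In the IGF2BP3 knockout, gains were 1 with the widest peaks. The use of start sites was chosen after seeing the data. Merging peaks closer than 500 bp, or asking for an overlap of 50% of both peaks, left the values they were applied to inside their intervals. No paired analysis was possible because each group was deposited as 1 list, and for the same reason no replicate could be left out. Depth, which is unknown, limits every count of narrow peaks.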
